A study of Mus musculus with 6 samples.

Results

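HOX genes encode homeodomain transcription factors that give cells their position along the head-to-tail axis. In the mouse they lie in 4 clusters, HOXA on chromosome 6, HOXB on chromosome 11, HOXC on chromosome 15 and HOXD on chromosome 2, and members of different clusters that carry the same number (paralogues) descend from a common ancestral gene. Low-numbered genes are used towards the head and high-numbered genes towards the tail and the ends of the limbs. Adult skin cells, dermal fibroblasts above all, are known to keep a HOX pattern that records their site of origin. Trithorax-group MLL complexes keep HOX genes active and Polycomb complexes keep them silent; BAP1 is a nuclear deubiquitinase that takes ubiquitin off histone H2A, the mark that Polycomb complex 1 places. The 38 HOX genes described here were taken by name from the 36528 gene models of the deposited files as members of the family: 10 of HOXA, 10 of HOXB, 9 of HOXC and 9 of HOXD. They are ordered by cluster and by number, on the GRCm38 build, with HOXA at chr6:52162417-52260880 on the minus strand and, on the plus strand, HOXB at chr11:96194316-96368254, HOXC at chr15:102921131-103036856 and HOXD at chr2:74668225-74765142; anterior means paralogue numbers 1 to 3, central means 4 to 8 and posterior 9 to 13.

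PolyA RNA of primary melanocytes, the pigment cells of the skin, was sequenced in 6 libraries of mouse skin origin, 3 with the genotype label BAP1 KO and 3 with the label WT; the labels state no treatment, age or strain, no way in which the allele was made, and no separate animals or cultures behind the libraries. The p-values below therefore measure the spread between these libraries, which may be technical. Libraries held 33987690 to 43773769 counted reads. Levels are CPM, the reads of a gene scaled to library size, after TMM scaling, which corrects for library composition, and levels of different genes are compared only on the deposited RPKM, which is divided by gene length. Differences are log2 fold changes of the libraries labelled BAP1 KO against those labelled WT, with their standard error, from edgeR's quasi-likelihood test over 17121 genes, with a gene called where its p, adjusted after Benjamini-Hochberg, was under 0.05.

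The gene named in the genotype went against its label. The libraries labelled BAP1 KO gave 73.6, 77.3 and 72.5 CPM for Bap1, where those labelled WT gave 55.7, 55.6 and 55.8 CPM, 1.34-fold higher under the knockout label (log2 0.42 ± 0.042, adjusted p = 3.89e-06 by edgeR). The counts are summed over the whole gene, so that the loss of single exons would not show in them. Every direction below therefore refers to the libraries labelled BAP1 KO and labelled WT and not to a measured loss of Bap1. Cell type markers also differed between the labels. All 12 melanocyte markers were detected in every library and were higher under the BAP1 KO label, with summed levels of 64570 to 65400 CPM against 6843 to 6898 CPM. Of 20 keratinocyte markers 19 were tested and all 19 were lower (summed 666 to 713 CPM against 11730 to 11920 CPM), and of 17 fibroblast markers 16 were tested, with 15 lower and 1 higher (224 to 240 CPM against 1362 to 1394 CPM). The 13 Schwann, immune and endothelial markers, 11 of them tested, split into 7 that were higher, 3 lower and 1 that missed the threshold (2339 to 2379 CPM against 1084 to 1159 CPM); no gene of these 4 lists was at 0 in every library. Over all tested genes 39.4% were higher and 42.1% lower. In bulk RNA, fewer cells of a type and less RNA per cell cannot be told apart. The part of these cell type differences in the HOX differences below was not tested.

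Many HOX genes are known to start in DNA that is rich in CpG, the dinucleotide at which Polycomb and MLL complexes are known to gather. RefSeq promoter windows of GRCm38.p6 matched 22 of the 38 genes, with 24 windows. Of HOXB they covered Hoxb1, Hoxb4 and Hoxb8 alone, and of HOXC Hoxc4 alone, so the values mostly describe HOXA and HOXD. The 250 bases before each start held a median of 12.5 CpG (range 2 to 35), against 6 (range 0 to 56) over 32841 such windows of 27018 genes, and a median GC content of 58.6% against 52.4%. Of 24 HOX windows 16.7% held TATAAA, the core of the TATA box, against 12.4% of all windows. TGATNNAT, the joint site of HOX and PBX proteins, was in 16.7% against 7.69%, and GCCATNTT, the core of the YY1 site, in 4.17% against 3.91%, with both strands searched for each. The windows of 4 of the genes with contrasting differences are shown, chosen after their values were seen: Hoxa5 and Hoxa6 kept the smallest shares of their WT-labelled level, Hoxb4 the largest of the HOXB genes, and Hoxb8 lay between. Capitals mark each CG, and each run is 5′ to 3′ on the gene's strand and ends at the base before the start.
Hoxa5: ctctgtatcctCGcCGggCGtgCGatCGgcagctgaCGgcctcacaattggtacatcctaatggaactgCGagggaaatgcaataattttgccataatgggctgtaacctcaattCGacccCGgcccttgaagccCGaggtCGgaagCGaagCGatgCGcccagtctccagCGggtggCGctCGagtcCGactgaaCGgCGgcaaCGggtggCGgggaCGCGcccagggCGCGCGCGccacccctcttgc
Hoxa6: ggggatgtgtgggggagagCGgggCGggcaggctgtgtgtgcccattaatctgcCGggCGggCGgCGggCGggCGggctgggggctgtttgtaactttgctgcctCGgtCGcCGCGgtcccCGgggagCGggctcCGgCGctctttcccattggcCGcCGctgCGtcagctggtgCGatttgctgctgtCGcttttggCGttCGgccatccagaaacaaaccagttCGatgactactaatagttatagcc
Hoxb4: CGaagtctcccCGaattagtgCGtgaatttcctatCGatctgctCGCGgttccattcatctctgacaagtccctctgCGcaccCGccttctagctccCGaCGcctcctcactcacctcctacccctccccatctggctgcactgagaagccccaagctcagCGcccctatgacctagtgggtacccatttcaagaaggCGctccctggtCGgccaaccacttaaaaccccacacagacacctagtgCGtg
Hoxb8: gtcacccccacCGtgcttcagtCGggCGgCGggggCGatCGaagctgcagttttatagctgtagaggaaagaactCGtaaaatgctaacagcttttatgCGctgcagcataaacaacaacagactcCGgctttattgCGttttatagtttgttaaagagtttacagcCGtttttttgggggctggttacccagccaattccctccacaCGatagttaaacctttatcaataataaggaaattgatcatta
The Hoxa5 window (chr6:52204588-52204837, minus strand) holds 28 CpG and the Hoxa6 window (chr6:52208673-52208922, minus strand) 24. The Hoxb4 window (chr11:96318017-96318266, plus strand) holds 14 and the Hoxb8 window (chr11:96281655-96281904, plus strand) 12. CpG number and difference did not go together throughout: the Hoxa7 window holds 7 and the Hoxa9 window 3 (log2 fold changes −5.32 and −4.46), and the windows of Hoxa10, at −1.99, hold 20 and 7. For the windows of Hoxa7, Hoxa3, Hoxd10 and Hoxd13 the bases after the start matched no GENCODE transcript of the same gene. These windows may therefore not mark the start in use. A motif match describes these letters and is no sign that a factor binds there.

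HOX RNA was lower in the libraries labelled BAP1 KO in each of the 4 clusters. Summed over the 38 genes it came to 30.2, 30.9 and 31.8 CPM there, where the libraries labelled WT held 342, 348 and 355 CPM, so that 8.89% of the WT-labelled level was left. The corresponding share was 5.86% for the summed keratinocyte markers and 16.9% for the fibroblast markers. Of 38 genes 25 had enough reads to be tested, and all 25 were lower and none higher, where 42.1% of all tested genes were lower and 39.4% higher. Their median log2 fold change was −3.92 (range −5.58 to −1.45), against −0.028 over all tested genes. In all 25 every BAP1 KO library lay below every WT library, as it did for 42.6% of all tested genes. Tested against a fold change of 1 on the log2 scale (edgeR's glmTreat), 24 of the 25 were lower, against 20.0% of all genes, and 18 were over 8-fold lower, against 8.88%. Only 12 of the 25 reached the count filter's minimum of 0.266 CPM in all libraries labelled BAP1 KO as well; the other 13 missed it in at least 1 of them. Since a gene is tested where it is high in 1 group, the filter favours genes that differ, and the counts over tested HOX genes are a description. Those 12 were Hoxa3, Hoxa5, the 8 tested HOXB genes, Hoxc6 and Hoxd8. Without regard to the filter, the mean CPM was lower under the BAP1 KO label in all 38 genes, as it was in 57.4% of the 27083 gene models with reads.

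**Figure D1:**
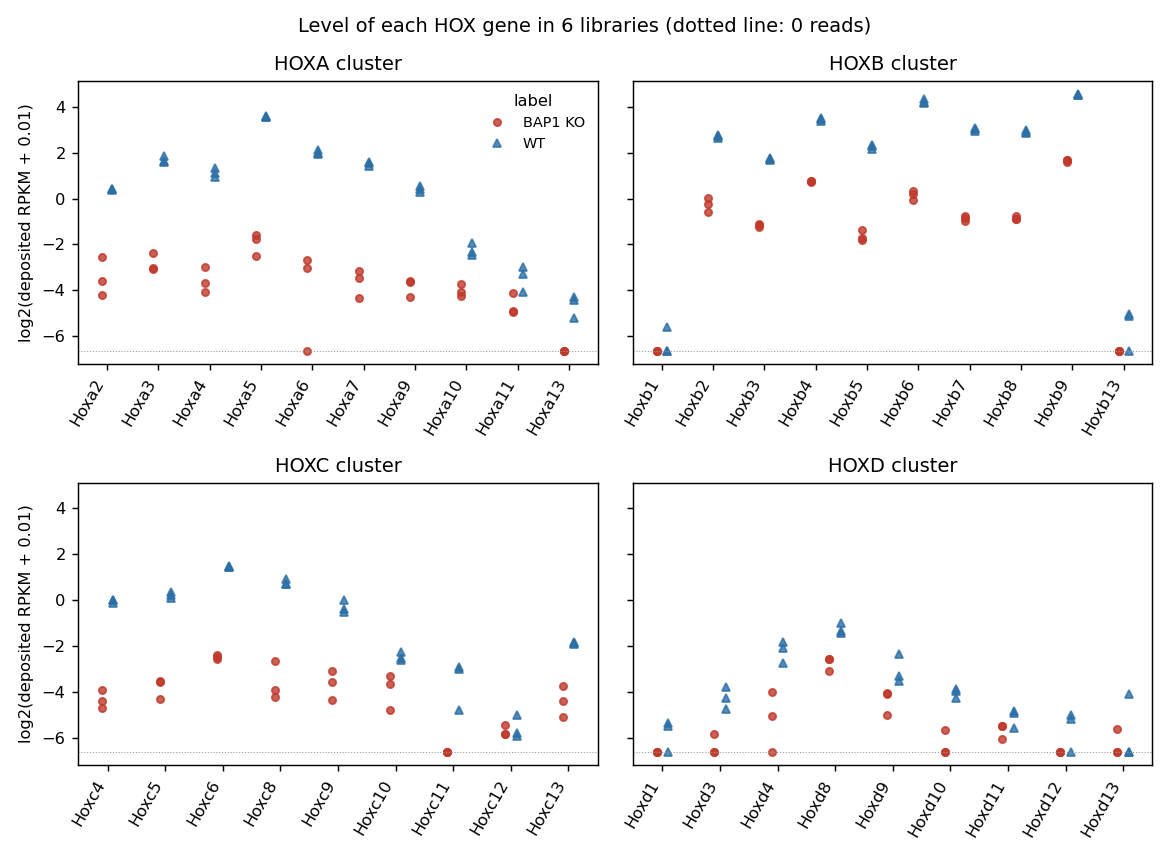
Level of each HOX gene as log2 of the deposited RPKM plus 0.01, by cluster and in numerical order, with circles for the 3 libraries labelled BAP1 KO and triangles for the 3 labelled WT; the dotted line marks 0 reads. In each of the 25 tested genes all 3 circles lie below all 3 triangles.

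The deepest differences lay in the middle of HOXA. Hoxa5, a regulator of lung and neck-to-chest skeleton, had 21, 14 and 23 reads in the libraries labelled BAP1 KO and 816, 916 and 994 in those labelled WT. This was 0.51 ± 0.16 against 24.0 ± 0.46 CPM (SD, n = 3), 47.4-fold lower (log2 −5.57 ± 0.13, edgeR adjusted p = 1.85e-11). Its neighbour Hoxa6 had 4, 0 and 3 reads against 103, 110 and 134 (log2 −5.58 ± 0.34). The estimate moved to −6.19 without BAP1 KO replicate 1 and to −4.93 without BAP1 KO replicate 2. Hoxa7 had 18, 10 and 22 reads against 634, 628 and 723 (log2 −5.32 ± 0.17), with 20.4% of its exon bases overlapped by other annotated genes. These central genes kept 2.10% to 2.54% of their WT-labelled level.

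Towards both ends of HOXA the differences were smaller. On the head side, Hoxa4 had 3, 8 and 4 reads against 109, 135 and 168 (log2 −4.77 ± 0.25). Hoxa3, needed for thymus and parathyroid, had 11, 21 and 11 reads against 286, 330 and 402 (log2 −4.58 ± 0.16). Hoxa2, which patterns the hindbrain and the second pharyngeal arch, had 5, 13 and 3 reads against 87, 98 and 101 (log2 −3.77 ± 0.27, and −4.47 without BAP1 KO replicate 2). Other annotated genes overlap 16.0%, 27.1% and 15.0% of the exon bases of these genes, and the library kit does not mark strand, so reads of overlapping partners cannot be told apart. On the tail side, Hoxa9, a driver of blood stem cells and leukaemia, had 9, 6 and 9 reads against 159, 163 and 208 (log2 −4.46 ± 0.19). Hoxa10, known for uterus and lumbar vertebrae, had 8, 6 and 6 reads against 20, 33 and 26 (log2 −1.99 ± 0.31, adjusted p = 1.24e-04 by edgeR), the smallest difference of the 8 tested HOXA genes. For each of these genes every BAP1 KO library lay below every WT library, as for 42.6% of all tested genes. Hoxa11 (2, 5 and 2 reads against 8, 11 and 5) and Hoxa13 (none against 2, 2 and 1), genes of the limb and the urogenital tract, had too few reads to be tested.

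HOXB kept more of its RNA and carried most of what was left. Hoxb9, which shapes the rib cage together with its paralogues, had 334, 369 and 325 reads under the BAP1 KO label and 2350, 2538 and 2818 under WT. This was 8.91 ± 0.22 against 67.8 ± 0.46 CPM, 7.62-fold lower (log2 −2.93 ± 0.049, adjusted p = 1.60e-12 by edgeR). Hoxb4, known for expanding blood stem cells, had 190, 208 and 182 reads against 1170, 1230 and 1416 (log2 −2.74 ± 0.061) and kept 15.0% of its level, the highest share in the cluster. Hoxb2 (69, 99 and 101 reads against 622, 726 and 794; log2 −3.01 ± 0.11) and Hoxb3 (128, 156 and 118 against 893, 1055 and 1083; log2 −2.94 ± 0.074) kept 12.4% and 13.0%. Both are hindbrain patterning genes, and other annotated genes overlap 27.3% and 52.9% of their exon bases.

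Between them, Hoxb5 to Hoxb8 had log2 fold changes of −4.11 to −3.81, where Hoxb2, Hoxb3, Hoxb4 and Hoxb9 had −3.01 to −2.74. Hoxb6 had 64, 95 and 74 reads against 1128, 1304 and 1538 (log2 −4.11 ± 0.096, 17.3-fold). Hoxb5 had 28, 25 and 20 reads against 351, 348 and 423 (log2 −3.96 ± 0.13). Hoxb7, reported to switch on basic fibroblast growth factor in human melanoma, had 48, 51 and 50 reads against 690, 777 and 752 (log2 −3.92 ± 0.097). Hoxb8, used to immortalise myeloid progenitors, had 59, 73 and 56 reads against 784, 831 and 975 (log2 −3.81 ± 0.081). The 4 genes kept 5.76% to 7.12% of their level. In each of the 8 tested HOXB genes every BAP1 KO library lay below every WT library, as for 42.6% of all tested genes. This split within HOXB was seen in the values and was not tested. At the 2 ends, Hoxb1, the hindbrain gene, had 1 read in 1 library and Hoxb13, a gene of tail and prostate, 1 read in each of 2 libraries, all labelled WT.

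**Figure D2:**
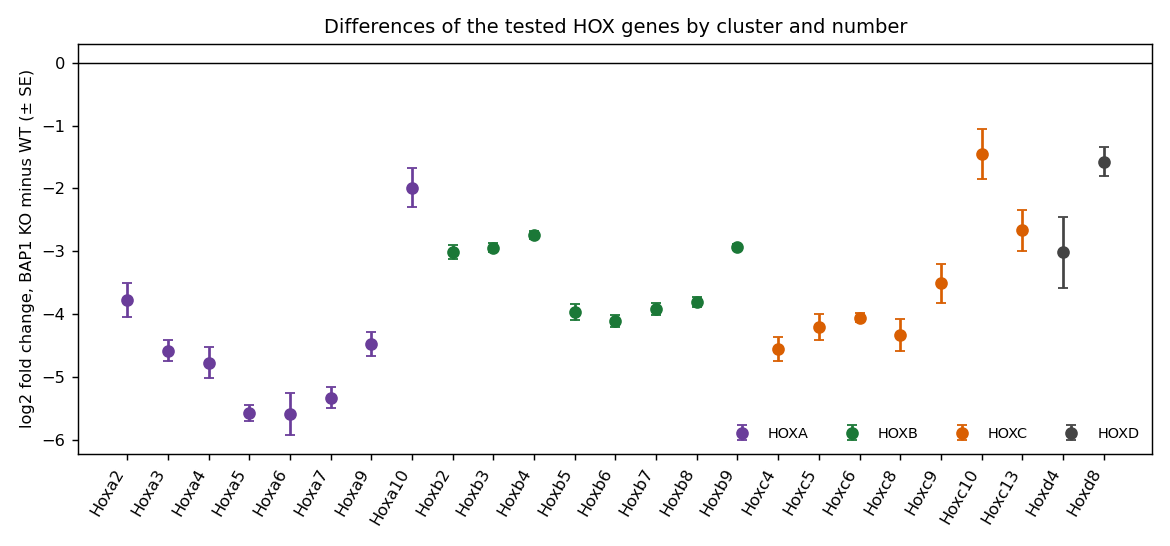
Log2 fold change of the libraries labelled BAP1 KO against those labelled WT for the 25 tested HOX genes, with bars of 1 standard error, coloured by cluster and ordered by number. HOXA dips to −5.58 at Hoxa6, HOXB forms steps near −3 and −4, and the values nearest 0 are those of Hoxc10, Hoxd8 and Hoxa10.

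The 4 central HOXC genes had log2 fold changes of −4.55 to −4.05. Hoxc6, the HOXC gene with the most reads, had 69, 76 and 72 under the BAP1 KO label and 1065, 1179 and 1302 under WT, 1.88 ± 0.11 against 31.2 ± 0.49 CPM (log2 −4.05 ± 0.073, edgeR adjusted p = 2.80e-12). Hoxc4 had 7, 12 and 5 reads against 159, 195 and 207 (log2 −4.55 ± 0.19). Hoxc5 had 8, 5 and 8 reads against 118, 118 and 151 (log2 −4.20 ± 0.21). Hoxc8, which specifies forelimb-level motor neurons and lower ribs, had 4, 16 and 5 reads against 169, 159 and 169 (log2 −4.32 ± 0.26), and −5.10 without BAP1 KO replicate 2. In these genes every BAP1 KO library lay below every WT library, as for 42.6% of all tested genes.

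The posterior HOXC genes had few reads and smaller differences. Hoxc9, the thoracic motor neuron gene, had 5, 3 and 7 reads against 44, 53 and 75 (log2 −3.50 ± 0.31). Hoxc13, required for hair and nail keratins, had 4, 8 and 2 reads against 28, 29 and 32 (log2 −2.66 ± 0.33). Hoxc10, a gene of lumbar motor neurons, had 2, 8 and 5 reads against 11, 13 and 17 (log2 −1.45 ± 0.39, adjusted p = 0.00573 by edgeR), the smallest difference of all 25, and did not pass glmTreat (adjusted p = 0.148). Hoxc11 had no read under the BAP1 KO label and 4, 1 and 5 under WT. This was 3.54-fold lower when 3 reads are allowed over the group at 0. That figure takes the few reads under WT as exact and is no strict lower limit. Hoxc12 had 1, 2 and 1 reads against 1, 3 and 1, with no difference detectable at this depth.

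HOXD genes had few reads under both labels. Hoxd8 had 11, 19 and 16 reads in the libraries labelled BAP1 KO and 38, 40 and 58 in those labelled WT, 0.40 ± 0.086 against 1.19 ± 0.19 CPM (log2 −1.58 ± 0.23, edgeR adjusted p = 8.06e-05). Hoxd4 had none, 6 and 2 reads against 26, 24 and 16 (log2 −3.02 ± 0.56, adjusted p = 4.94e-04 by edgeR). That estimate moved to −4.24 without BAP1 KO replicate 2, and 52.3% of the exon bases of Hoxd4 lie in other annotated genes. The other 7 HOXD genes were not tested. Of these, Hoxd9 reached 17 reads, the most of any untested HOX gene in 1 library (4, 2 and 4 against 6, 8 and 17). Hoxd10, a gene of hindlimb motor neurons, had 0, 0 and 1 reads against 6, 6 and 5, and Hoxd3 0, 1 and 0 against 3, 5 and 8. Hoxd11, Hoxd12 and Hoxd13, the genes of forearm and digits, and Hoxd1 had at most 5 reads in any library. When no count filter was applied, 5 of the 13 untested HOX genes were lower (Hoxa11, Hoxc11, Hoxd3, Hoxd9 and Hoxd10) and 8 did not pass the threshold; 30.1% of all gene models were lower in that fit, a share not far from that of these genes.

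By position along the clusters, the central genes held most of the HOX RNA and had the lowest median difference. All 15 central genes were tested and lower, with a median log2 fold change of −4.11 and 6.84% of the summed WT-labelled CPM left. Of 7 anterior genes 4 were tested (median −3.39, 11.1% left), and of 16 posterior genes 6 (median −2.80, 12.9% left). These shares pool clusters that differ. Anterior, central and posterior genes kept 4.72%, 2.38% and 8.24% in HOXA and 12.75%, 8.77% and 13.1% in HOXB. Position and cluster were not separated by a test. Central genes made up 65.7% ± 0.22 of all HOX RPKM in the libraries labelled WT and 51.1% ± 0.46 in those labelled BAP1 KO, and posterior genes 22.2% ± 0.22 and 34.3% ± 1.16; Hoxb9 with Hoxb13 made up 19.5% and 30.5%. By paralogue number, the medians ran from −1.72 in group 10 (Hoxa10 and Hoxc10) to −4.62 in group 7 (Hoxa7 and Hoxb7). No gene of groups 1, 11 and 12 was tested, and Hoxc13 was the one tested gene of group 13. Across the 25 tested genes the Spearman correlation of the log2 fold change was 0.30 with the paralogue number and −0.31 with the log2 RPKM under the WT label, as a description of genes that share the same 6 libraries.

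Per unit length, Hoxb9 was the highest HOX gene under both labels. In the libraries labelled WT it stood at 23.2, 22.7 and 23.6 RPKM, followed by Hoxb6 (17.7, 18.5 and 20.5), Hoxa5 (11.6, 11.8 and 12.0) and Hoxb4 (11.0, 10.5 and 11.4), and these 4 did not overlap. The next pair, Hoxb7 at 8.04 ± 0.40 and Hoxb8 at 7.48 ± 0.37 RPKM, did overlap, as did Hoxb3 at 3.27 ± 0.11 and Hoxa3 at 3.24 ± 0.31 further down. In the libraries labelled BAP1 KO the order was Hoxb9 (3.15, 3.02 and 3.16 RPKM), Hoxb4 (1.71, 1.62 and 1.69) and Hoxb6 (0.96, 1.23 and 1.14), with Hoxa5 down at 0.26 ± 0.082. The group mean was at least 1 RPKM for 18 genes under the WT label (7 of HOXA, 8 of HOXB and 3 of HOXC) and for those 3 HOXB genes under the BAP1 KO label. The order of the 25 tested genes was largely kept between labels (Spearman correlation 0.88, a description across genes of the same 6 libraries). The deposited lengths limit this order: they are 0.452 to 4.68 times the GENCODE exon length (median 1.06), and Hoxc6, the extreme, ranks 13 by RPKM and 4 by GENCODE length.

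Cluster by cluster, HOXB had a larger and HOXA a smaller share of the HOX RNA in the libraries labelled BAP1 KO. HOXA kept 3.30% of its summed CPM (2.15 ± 0.19 against 65.2 ± 1.60), HOXC 6.19% (2.89 ± 0.18 against 46.7 ± 0.77), HOXB 10.8% (25.3 ± 0.51 against 234 ± 3.94) and HOXD 24.6% (0.62 ± 0.12 against 2.52 ± 0.11). The median log2 fold changes of tested genes were −4.67 in HOXA (8 genes), −4.05 in HOXC (7), −3.41 in HOXB (8) and −2.30 in HOXD (2). Of all HOX RPKM, HOXB held 84.0% under the BAP1 KO label and 69.9% under WT, and HOXA 8.52% and 22.7%. With GENCODE lengths these shares were 80.8% and 66.0% for HOXB, and 7.26% and 20.2% for HOXA.

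Paralogues of the same number allow this to be read gene by gene, since gene length cancels when the ratio of their reads is compared between libraries. The ratio of Hoxa5 to Hoxb5 reads was 0.75, 0.56 and 1.15 under the BAP1 KO label and 2.33, 2.63 and 2.35 under WT, so that the gene with more reads changed from Hoxa5 to Hoxb5 in 2 of 3 libraries. Hoxa3 to Hoxb3 went from 0.320, 0.313 and 0.371 under WT to 0.0859, 0.135 and 0.0932. Hoxa4 to Hoxb4 stood at 0.0932, 0.110 and 0.119 under WT and at 0.0158, 0.0385 and 0.0220. Hoxa7 to Hoxb7 and Hoxa9 to Hoxb9 were likewise lower under the BAP1 KO label without overlap, while Hoxa2 to Hoxb2 overlapped. Of the 5 pairs of HOXB with HOXC, the groups stood apart for number 4 and overlapped for numbers 5, 6, 8 and 9. Hoxb4 to Hoxc4 was 27.1, 17.3 and 36.4 under the BAP1 KO label and 7.36, 6.31 and 6.84 under WT. Hoxb6 to Hoxc6 was 0.928, 1.25 and 1.03 against 1.06, 1.11 and 1.18, with overlap. The reads of Hoxc8 against those of Hoxd8 were lower under the BAP1 KO label: Hoxc8 to Hoxd8 was 0.364, 0.842 and 0.313 against 4.45, 3.98 and 2.91. In an exact two-sided permutation test, 3 against 3 libraries cannot go below p = 0.1, which is 0.17 after Benjamini-Hochberg adjustment over the 17 pairs with no 0; none passed the threshold. Of the remaining pairs Hoxa5 to Hoxc5, Hoxa9 to Hoxc9 and Hoxb8 to Hoxd8 were lower under the BAP1 KO label without overlap, and Hoxa4 to Hoxc4 and Hoxa10 to Hoxc10 overlapped.

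**Figure D3:**
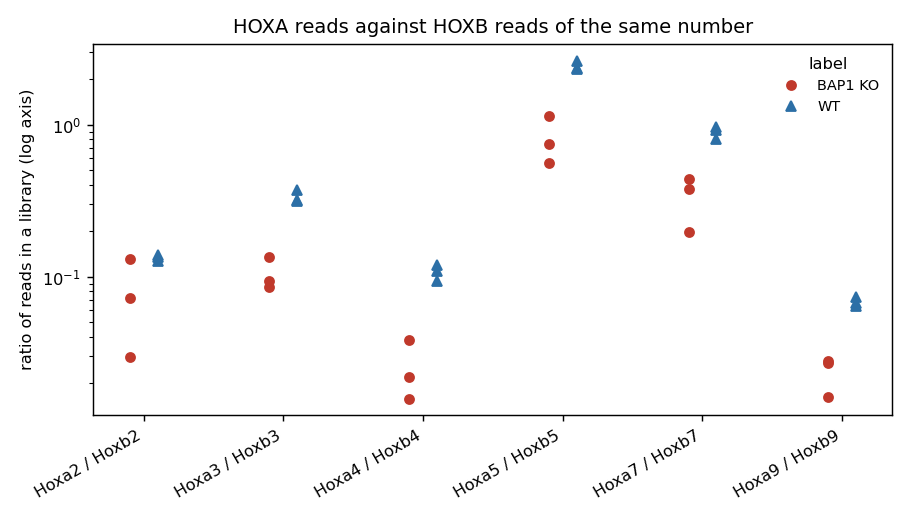
Ratio of HOXA to HOXB reads of the same paralogue number in each library on a log axis, with circles for the libraries labelled BAP1 KO and triangles for those labelled WT. The circles lie below the triangles for numbers 3, 4, 5, 7 and 9 and meet them for Hoxa2 and Hoxb2.

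Other RNAs made inside the clusters were lower as well where they had enough reads to be tested. Of 23 gene models within the cluster bounds that are no HOX genes, 8 were tested and all 8 were lower (median log2 fold change −4.01, range −5.18 to −2.48). Over all tested genes the share that was lower was 42.1%. In HOXA these were Hoxaas3 (−5.18 ± 0.40), Mira (−4.89 ± 0.20), an RNA reported to recruit MLL to neighbouring HOX genes, and 5730596B20Rik (−4.59 ± 0.30). HOXB held Hoxb5os (−3.89 ± 0.16), Gm53 (−3.50 ± 0.096), the most abundant of them in reads at 1.96 ± 0.23 against 22.2 ± 1.38 CPM, and Hoxb3os (−2.48 ± 0.22), and HOXC held Gm30528 (−4.13 ± 0.30). Several share exons with the HOX genes beside them in libraries without strand, so these values are not independent of the members. The count filter favours genes that differ here too, so the count of 8 is a description. Hoxaas3 (1, 1 and 1 reads under the BAP1 KO label), Mira (5, 8 and 13) and 5730596B20Rik (2, 3 and 6) missed its minimum of 0.266 CPM in at least 1 of those libraries. So did Gm30528 (4, 3 and 2) and Mir196a-1 (12, 8 and 8). Hotair, the HOXC RNA known for binding Polycomb complex 2, had none, 3 and 0 reads under the BAP1 KO label and 0, 0 and 1 under WT.

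The miRNA genes of the clusters add a link by sequence. Reads over the Mir196a-1 hairpin model, between Hoxb9 and Hoxb13, numbered 12, 8 and 8 under the BAP1 KO label and 129, 120 and 153 under WT (log2 −3.85 ± 0.20, edgeR adjusted p = 1.27e-08). These are polyA reads over the hairpin model and not the mature miRNA, which was not measured. The mature sequences made from HOXB and HOXA are shown because they share a seed, the bases 2 to 8 that pair with targets, in capitals below; miR-196 is known to target Hoxb8 RNA.
miR-196a-5p: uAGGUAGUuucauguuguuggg
miR-196b-5p: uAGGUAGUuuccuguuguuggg
The second copy of miR-196a, in HOXC, had no reads in any library, and the hairpin of miR-196b had 1 and 2 reads in 2 libraries labelled WT.

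The differences did not extend evenly beyond the clusters. Of 78 gene models within 500 kb outside the outermost HOX genes 40 were tested, with 16 higher, 14 lower and 10 not past the threshold. Their median log2 fold change was 0.11, with a range from −5.40 to 2.02. Over all tested genes 39.4% were higher and 42.1% lower. The nearest tested named genes were low on some sides. Halr1, a long noncoding RNA 48.7 kb beyond Hoxa2, is also called Haunt and was studied for its part in HOXA induction by retinoic acid. It was at −5.40 ± 0.50, with 3, 0 and 0 reads under the BAP1 KO label against 41, 42 and 57. Skap1, a T cell adaptor gene 96.3 kb beyond Hoxb1, was at −3.66 ± 0.19 (10, 8 and 9 reads against 113, 103 and 125). Atp5g1 beyond Hoxb13 (−1.04), Smug1 beyond Hoxc4 (−0.83) and Mtx2 beyond Hoxd1 (−0.80) were lower by less than any called HOX gene. Hibadh beyond Hoxa13 (0.45), Lnpk beyond Hoxd13 (0.32) and Calcoco1 beyond Hoxc13 (0.21) were higher. Gm28876, a noncoding RNA 58.3 kb beyond Hoxc4 singled out after its value was seen, was at −4.34 ± 0.62. It had 0, 0 and 2 reads under the BAP1 KO label against 14, 16 and 17.

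**Figure D4:**
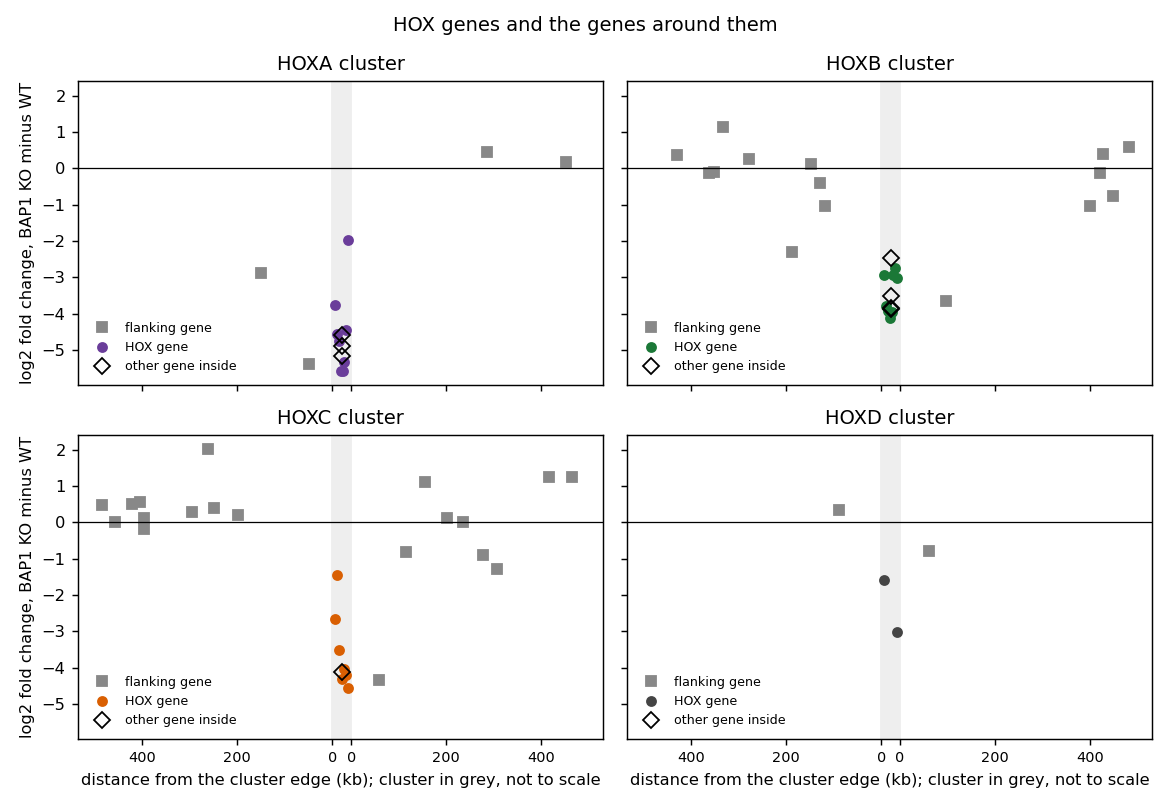
Log2 fold change of the libraries labelled BAP1 KO against those labelled WT for tested genes around each cluster, against the distance in kb from the cluster edge, with the cluster itself in grey and not to scale. Filled circles are HOX genes, open diamonds other genes inside the cluster and squares flanking genes; the 40 squares range from −5.40 to 2.02 with a median of 0.11, and the HOX circles from −5.58 to −1.45.

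HOX proteins bind DNA with TALE cofactors of the MEIS, PBX and PKNOX families, and their median log2 fold change was nearer 0 than that of the HOX genes. Of 9 cofactor genes, all tested, 5 were lower, 3 higher and 1 not past the threshold, with a median log2 fold change of −0.34. The shares over all tested genes were 42.1% lower and 39.4% higher. Meis1, which joins HOX proteins in leukaemia, was at −1.24 ± 0.10 and Meis3 at −0.96 ± 0.053.

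Retinoic acid and caudal factors act upstream of HOX genes in the embryo. Of 21 genes of that list 16 were tested, with 9 lower, 5 higher and 2 not past the threshold (median −0.93). Among all tested genes 42.1% were lower and 39.4% higher. Stra6, which takes up retinol, was lower by far (0.73 ± 0.037 against 35.4 ± 2.82 CPM, log2 −5.58 ± 0.11). Aldh1a1, which makes retinoic acid, was higher (170 ± 5.25 against 6.33 ± 0.28 CPM, log2 4.75 ± 0.054). Its relatives Aldh1a3 (13.6 against 155 CPM, log2 −3.5) and Aldh1a2 (log2 −1.62), named after their values were seen, were lower. Cdx2 and Cdx4, 2 of the 3 caudal genes, had no reads in any library.

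Genes of the chromatin complexes that hold HOX genes on or off were mostly higher. Across all tested genes 39.4% were higher and 42.1% lower. Of 11 MLL and menin genes, all tested, 8 were higher and 3 lower (median 0.32), led by Kmt2c (log2 1.53 ± 0.041), the H3K27 demethylase Kdm6a (1.25 ± 0.059) and Kmt2d (0.85 ± 0.057). Of 22 Polycomb genes, all tested, 17 were higher and 2 lower, with 3 that missed the threshold (median 0.60), led by the complex 2 partner Jarid2 (1.65 ± 0.044), the complex 1 reader Cbx7 (1.44 ± 0.056) and the methyltransferase Ezh1 (1.38 ± 0.039). These lists share libraries with the HOX values and stand beside them as measurements.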

How the data were processed

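PolyA RNA of 6 libraries was prepared with a TruSeq RNA v2 kit, which does not mark strand, and read as single-end reads of 50 bases, per the labels' protocols. GSNAP and the GRCm38 build were used, per the submitters' processing notes; no source used here names the counting tool or the annotation. Each file holds, per the file headers, the count of reads per gene model and an RPKM adjusted by a library size factor.

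Of 36528 gene models 31049 (85.0%) matched the RefSeq table of GRCm38.p6; unmatched models held 1.09% of the reads. No library repeated another: pairs within a group had a chi-square of 2.01 to 17.4 for each degree of freedom. Genes passing filterByExpr (minimum count 10, minimum total 15) entered edgeR 4.0.16 (R 4.3.3), with TMM factors of 0.974 to 1.03, glmQLFit and glmQLFTest, and no covariate; the common biological coefficient of variation was 0.0536. Standard errors were obtained by dividing each log2 fold change by the root of its F statistic. The code was tested on simulated data. Paralogue ratios were compared by exact permutation (scipy 1.17.1). Exon overlap was computed from GENCODE M21 and promoter and miRNA sequences came from RefSeq.

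The members and lists were chosen with earlier results of these data known. Named genes were all HOX genes, Bap1, up to 3 called genes per list by absolute log2 fold change with at least 2 CPM in the higher group, the nearest tested named gene on each side of a cluster and the tested genes inside. The rule also gave Tyrp1, Mlana, Oca2, Ivl, Epcam, Perp, Postn, Col1a1, Fbln2, Lyz2, Mbp and Tyrobp, of which the report gives the lists' sums. Some genes that the rule names are not reported here. Alternatives were other scalings (the authors' library factors were added after seeing the data), count filters, DESeq2 1.42.0, limma-voom (limma 3.58.1), the robust option, glmTreat, an adjusted p under 0.01, members with at most 10% exon overlap, and leaving out each library.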

Additional observations from a re-analysis of the deposited data

How the results depend on the processing

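All 25 tested HOX genes were lower under each scaling, DESeq2, limma-voom, the robust option, an adjusted p under 0.01 and every fit without 1 library. All 18 tested members with at most 10% exon overlap were lower. With no count filter 30 of the 38 were lower; with at least 5 CPM in 3 libraries 12 members were tested and all 12 were lower, since fewer genes entered. Against a log2 fold change of 1, 3417 of all genes were lower and 1818 higher, and of the flanking genes 6 were lower and 1 higher; with the 5 CPM filter 9 flanking genes were higher. Of single HOX genes, 411 alternative values kept direction and call, 1 lost the call (Hoxc10 with glmTreat) and 0 reversed. The median of all genes moved from −0.028 to −0.18 without a filter, and to between −0.090 and 0.0018 under other scalings. Without each library in turn the log2 fold change of Hoxd4 ranged from −4.24 to −2.47 and that of Hoxc10 from −1.86 to −1.10. Depth limits the HOXD and end genes: 13 members had at most 17 reads in any library. No paired analysis was possible because the labels number no replicates. The replicate numbers used here follow the order in which the samples are listed within each label.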
